A study of Mus musculus with 6 samples.

Results

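The genes described here are the 9 JAK and STAT family genes measured on these arrays, of 21507 genes with a single symbol. They were chosen by family name, though with earlier results of these data known. They comprise 3 kinases (*Jak1*, *Jak2*, and *Tyk2*) and 6 transcription factors (*Stat2*, *Stat3*, *Stat4*, *Stat5a*, *Stat5b*, and *Stat6*). Hypothalamic RNA from male mice on chow was measured on 6 Affymetrix whole-transcript arrays. The first group, labeled *Slug ΔLepRb* here, holds 3 arrays titled KO. They were described as from mice with floxed *Slug* (*Snai2*) that were also homozygous for leptin receptor Cre. The other group, labeled *Slug fl/fl* here, holds 3 arrays titled WT. These were described as from mice with floxed *Slug* and without Cre. All 6 arrays are labeled 8 weeks of age, whereas the study's methods give an older age. The labels name a CreERT2 line, whereas the study describes Cre knocked in at *LepRb*, and no array came from mice with Cre alone. Cre of this kind acts in cells that express the receptor, which are a small part of the hypothalamus, while RNA came from the whole tissue. In such bulk samples, fewer cells of a type and less RNA per cell cannot be told apart. The labels do not say how many mice stand behind an array, so p-values measure only the spread between these arrays.

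JAKs are tyrosine kinases held by the intracellular tails of cytokine receptors, which have no kinase activity of their own. When leptin binds the long receptor isoform LepRb, JAK2 is activated and phosphorylates the receptor, STAT3 and STAT5 dock on it and are phosphorylated in turn, and the STAT dimers enter the nucleus and bind DNA. In hypothalamic neurons this pathway links leptin to food intake and energy expenditure, and SOCS3, itself encoded by a STAT3 target gene, limits it. Other receptors use other combinations, such as JAK1 and TYK2 with STAT2 for type I interferons, TYK2 and JAK2 with STAT4 for interleukin-12, and JAK1 with STAT6 for interleukin-4. The arrays measured RNA, so phosphorylation, the step that activates these proteins, was not measured. The comparison was designed to ask how hypothalamic RNA differs between mice with *Slug* deleted from LepRb cells and mice with intact *Slug*, and the groups here are those of the labels.

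*Snai2* went against the labels. Its log2 values were 10.36, 9.68, and 10.49 on the arrays labeled *Slug ΔLepRb*, against 3.79, 4.23, and 4.23 on those labeled *Slug fl/fl*, a log2 fold change of 6.09 (SE 0.21, limma adjusted p = 1.6e-06). Where in the transcript its probes lie is not given in the sources used here, and probes that miss the floxed exons could not test the labels. Why *Snai2* was higher on the arrays labeled *Slug ΔLepRb* was not tested. Every group and direction below is that of the labels. Of 20 hypothalamic neuron markers measured, 17 had a mean above the median of all genes (4.18), as did 0 of 7 pituitary, 2 of 8 choroid plexus, and 4 of 9 thalamus and cortex markers. Past the study's threshold, given below, were *Hdc* (higher) and *Avp* (lower) of the neuron markers and *Neurod6* (higher) and *Emx1* (lower) of the thalamus and cortex markers. *Gjb6* and *Kcnj10* (1 higher, 1 lower) of 9 astrocyte markers and *S100a9* (higher) of 6 blood and lymphocyte markers also passed. Array medians over all rows of the value table lay between 4.04 and 4.07, and correlations between arrays lay between 0.991 and 0.993.

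No JAK or STAT gene differed between the groups beyond the spread of the arrays. The study's threshold is an unadjusted p under 0.05 together with an increase or a fall of more than 25%. By limma, 0 of the 9 genes passed it, against 433 of 21507 genes, or 2.01% (309 higher, 1.44%, and 124 lower, 0.577%, in the arrays labeled *Slug ΔLepRb*). At an unadjusted p under 0.05 without a fold limit, 0 of 9 passed, beside 5.85% of all genes, and after Benjamini-Hochberg adjustment 0 of 9 passed, beside 3 genes in all (0.0139%). The unmoderated 2-tailed test that the methods name, on the same values, also called 0 of 9. In 0 of 9 were the 3 values of one group all above those of the other, beside 11.5% of all genes. Log2 fold changes ran between -0.17 for *Stat3* and 0.15 for *Stat6*, with the mean higher in 6 genes and lower in 3, and unadjusted p-values between 0.169 and 0.792. The median absolute log2 fold change was 0.073 over the 9 genes and 0.088 over all genes.

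**Figure D1:**
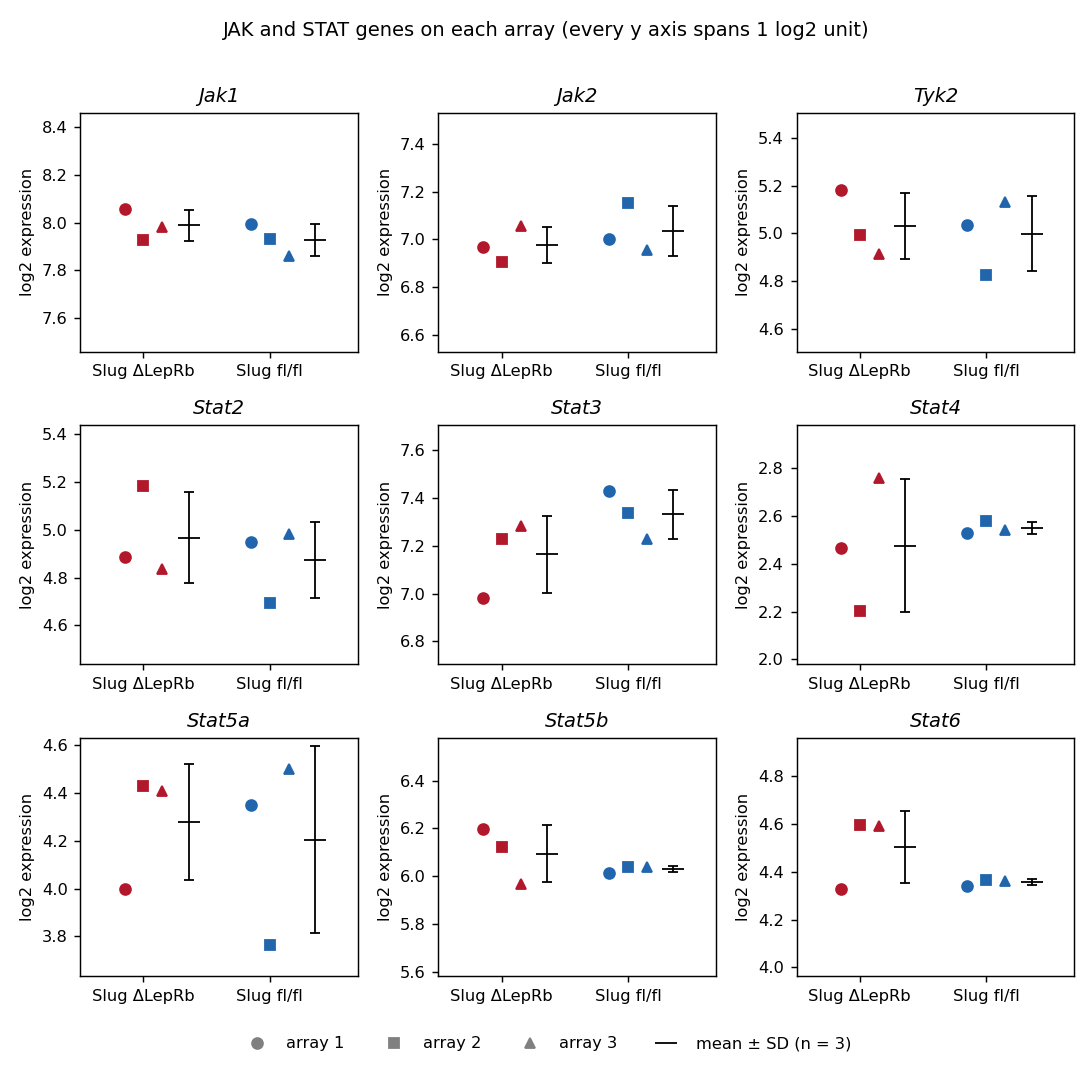
Log2 expression (y axis, 1 log2 unit in every panel) of the 9 JAK and STAT genes on the 3 arrays labeled Slug ΔLepRb (red, left) and the 3 labeled Slug fl/fl (blue, right), with a marker shape per array and the mean ± SD in black. The values of the groups overlap in all 9 panels, and the narrowest spread is in the Slug fl/fl arrays for Stat6, Stat5b, and Stat4.

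The 3 kinases had means within 0.07 log2 units of each other between the groups. *Jak1*, which is shared by interferon, gp130, and interleukin receptors, had log2 values of 8.06, 7.93, and 7.98 on the arrays labeled *Slug ΔLepRb*, against 7.99, 7.93, and 7.86 on those labeled *Slug fl/fl* (log2 fold change 0.06, SE 0.09, limma adjusted p = 0.955). The groups overlapped, with the highest and the lowest of the 6 values only 0.20 apart.

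*Jak2*, the kinase bound to LepRb and to the growth hormone, prolactin, and erythropoietin receptors, had log2 values of 6.97, 6.91, and 7.06 on the arrays labeled *Slug ΔLepRb*, against 7.0, 7.15, and 6.95 on those labeled *Slug fl/fl*. Its log2 fold change was -0.06 (SE 0.10, 95% interval -0.28 to 0.16, limma adjusted p = 0.959). The single high value, in the second *Slug fl/fl* array, made up the difference between the means. Without that array the log2 fold change was -6.4e-05. In fold terms the interval for *Jak2* ran between 0.823 and 1.12, so neither an increase nor a decrease of 25% lay within it.

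*Tyk2*, which serves interferon and interleukin-12 receptors, had log2 values of 5.18, 4.99, and 4.91 on the arrays labeled *Slug ΔLepRb*, against 5.04, 4.82, and 5.13 on those labeled *Slug fl/fl* (log2 fold change 0.03, SE 0.12, limma adjusted p = 0.988). The values interleave, and *Tyk2* had the smallest absolute log2 fold change of the 9 genes.

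*Stat3*, the main STAT downstream of LepRb and of the gp130 cytokines, had the largest absolute log2 fold change of the 9. Its log2 values were 6.98, 7.23, and 7.28 on the arrays labeled *Slug ΔLepRb*, against 7.43, 7.34, and 7.23 on those labeled *Slug fl/fl*. The first *Slug ΔLepRb* array was low and the other two lay at or near the lowest *Slug fl/fl* array. The difference between the means was -11.0% (log2 fold change -0.17, SE 0.11, limma unadjusted p = 0.169, adjusted p = 0.883, two-sided exact permutation p = 0.30, where 3 arrays against 3 allow no less than 0.10). The 95% interval, between 0.748-fold and 1.06-fold, just reached the 25% limit, so a fall of that size was not resolved by 6 arrays. Of all genes, 21.6% had a larger absolute log2 fold change than *Stat3*.

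The first *Slug ΔLepRb* array also stood apart in *Prl* (prolactin), a pituitary marker, with log2 values of 5.16, 2.63, and 3.01 on the arrays labeled *Slug ΔLepRb*, against 2.96, 2.80, and 2.60 on those labeled *Slug fl/fl*. *Gh* (growth hormone), another pituitary marker, had log2 values of 3.79, 2.83, and 2.76 on the arrays labeled *Slug ΔLepRb*, against 3.11, 3.05, and 2.96 on those labeled *Slug fl/fl*. The mean over the 7 pituitary markers, *Prl* and *Gh* included, was 3.34, 2.90, and 3.05 on the arrays labeled *Slug ΔLepRb*. On those labeled *Slug fl/fl* it was 3.18, 2.89, and 3.02. The first *Slug ΔLepRb* array was highest in *Prl*, *Gh*, and this mean. Because the mean holds the values of *Prl* and *Gh*, it is not a separate sign. The other pituitary markers are not given by array here. Without the first *Slug ΔLepRb* array the log2 fold change of *Stat3* was -0.08. The mean log2 value of 9 astrocyte markers was 7.64, 7.63, and 7.48 on the arrays labeled *Slug ΔLepRb* and 7.80, 7.60, and 7.65 on those labeled *Slug fl/fl*, and that of 10 microglial markers was 5.20, 5.38, and 5.35 on the arrays labeled *Slug ΔLepRb* and 5.45, 5.37, and 5.42 on those labeled *Slug fl/fl*. Both were lower in the arrays labeled *Slug ΔLepRb*. For astrocytes the group mean was 7.58 (SD 0.0904) in the arrays labeled *Slug ΔLepRb* and 7.68 (SD 0.108) in those labeled *Slug fl/fl*. For microglia it was 5.31 (SD 0.0964) in the arrays labeled *Slug ΔLepRb* and 5.41 (SD 0.0402) in those labeled *Slug fl/fl*. The astrocyte groups overlapped. The microglial groups overlapped only through the second *Slug ΔLepRb* array (5.38) and the second *Slug fl/fl* array (5.37). The part of these cells in the value of *Stat3* was not tested.

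*Stat5a* and *Stat5b* encode closely related factors downstream of leptin, growth hormone, and prolactin. *Stat5a* had log2 values of 4.0, 4.43, and 4.41 on the arrays labeled *Slug ΔLepRb*, against 4.35, 3.76, and 4.50 on those labeled *Slug fl/fl* (log2 fold change 0.07, SE 0.19, 95% interval -0.35 to 0.50, limma adjusted p = 0.976). With 1 low array in each group, it was the noisiest of the 9 genes, and only 1.74% of all genes had a larger SD among the *Slug fl/fl* arrays. *Stat5b* had log2 values of 6.20, 6.12, and 5.97 on the arrays labeled *Slug ΔLepRb*, against 6.01, 6.04, and 6.04 on those labeled *Slug fl/fl* (log2 fold change 0.06, SE 0.10, limma adjusted p = 0.953). Its *Slug fl/fl* values were almost the same (SD 0.014, n = 3), and the *Slug ΔLepRb* values lay on both sides of them.

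*Stat6*, the factor activated by interleukin-4 and interleukin-13, had log2 values of 4.33, 4.59, and 4.59 on the arrays labeled *Slug ΔLepRb*, against 4.34, 4.37, and 4.36 on those labeled *Slug fl/fl*. The first *Slug ΔLepRb* array lay just below every *Slug fl/fl* array, and the other two lay above them. The mean was 10.9% higher (log2 fold change 0.15, SE 0.10, 95% interval -0.08 to 0.38, limma unadjusted p = 0.184, adjusted p = 0.888, two-sided exact permutation p = 0.40). The SD was 0.151 among the arrays labeled *Slug ΔLepRb* and 0.014 among those labeled *Slug fl/fl* (n = 3 each). For 1.0% of all genes the spread among the *Slug fl/fl* arrays was smaller. Leaving out the first *Slug ΔLepRb* array gave 0.24 and a limma unadjusted p of 0.0513 (adjusted p = 0.799), the lowest unadjusted p of any of the 9 genes under any alternative tried.

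*Stat2*, which joins the interferon-activated complex ISGF3, had log2 values of 4.89, 5.18, and 4.83 on the arrays labeled *Slug ΔLepRb*, against 4.95, 4.69, and 4.98 on those labeled *Slug fl/fl* (log2 fold change 0.09, SE 0.13, limma adjusted p = 0.944). One high *Slug ΔLepRb* array and one low *Slug fl/fl* array set the means apart, and the remaining 4 values lay within a narrow band. *Stat4*, a factor of T cells and natural killer cells, had log2 values of 2.47, 2.20, and 2.76 on the arrays labeled *Slug ΔLepRb*, against 2.53, 2.58, and 2.54 on those labeled *Slug fl/fl* (log2 fold change -0.07, SE 0.14, limma adjusted p = 0.964). The *Slug ΔLepRb* arrays spread on both sides of the *Slug fl/fl* arrays. *Stat4* was the only one of the 9 whose mean was below the median of all genes, and without scanner files its probes could not be set against background.

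The first *Slug ΔLepRb* array was the highest of its group for *Jak1*, *Tyk2*, and *Stat5b* and the lowest for *Stat3*, *Stat5a*, and *Stat6*. Of the 9 genes, 3, 4, and 6 were above their own 6-array mean on the arrays labeled *Slug ΔLepRb*, against 6, 3, and 4 on those labeled *Slug fl/fl*. The SD was larger among the arrays labeled *Slug ΔLepRb* in 5 of the 9 genes, beside 51.0% of all genes. The median pooled SD was 0.136 log2 units over the 9 genes and 0.138 over all genes.

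**Figure D2:**
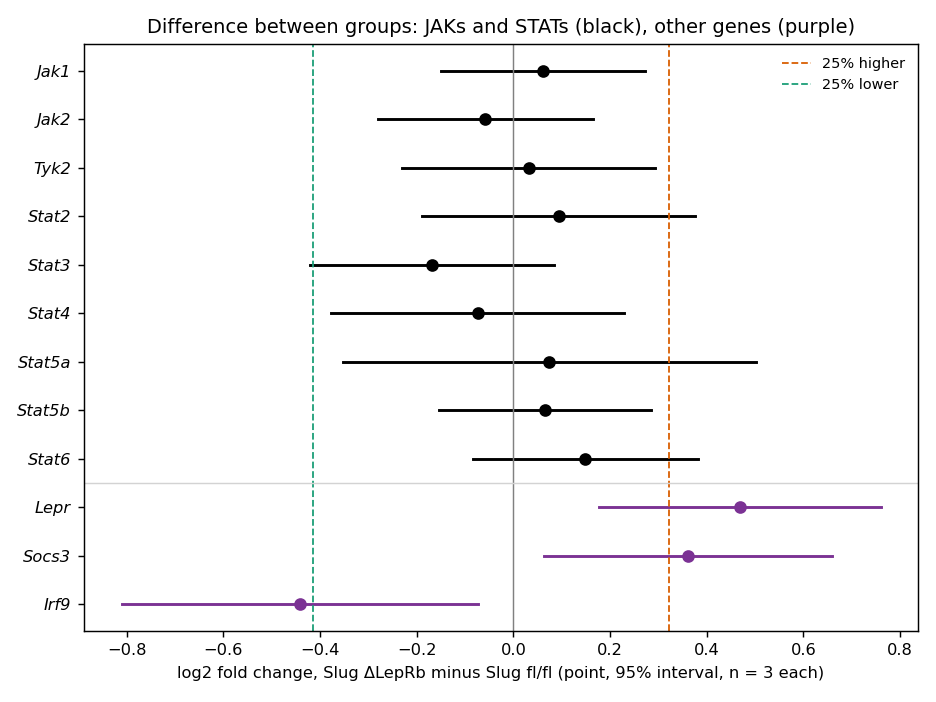
Log2 fold change, Slug ΔLepRb minus Slug fl/fl (x axis), of the 9 JAK and STAT genes (black) and of Lepr, Socs3, and Irf9 (purple), as points with 95% intervals (n = 3 arrays each) and dashed lines at 25% higher and 25% lower. All 9 black intervals span 0, and those of Stat2, Stat5a, and Stat6 cross the upper line while that of Stat3 touches the lower one.

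The width of these intervals sets what the arrays could resolve. For 5 of the 9 genes (*Jak1*, *Jak2*, *Tyk2*, *Stat4*, and *Stat5b*) the 95% interval reached neither an increase nor a decrease of 25%, as was the case for 52.6% of all genes. Of these, *Stat4* had a mean below the median of all genes, so low signal limits what its interval can show. For *Stat2*, *Stat5a*, and *Stat6* an increase of 25% lay inside the interval. *Stat5a* had the widest interval, between 0.783-fold and 1.42-fold.

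**Figure D3:**
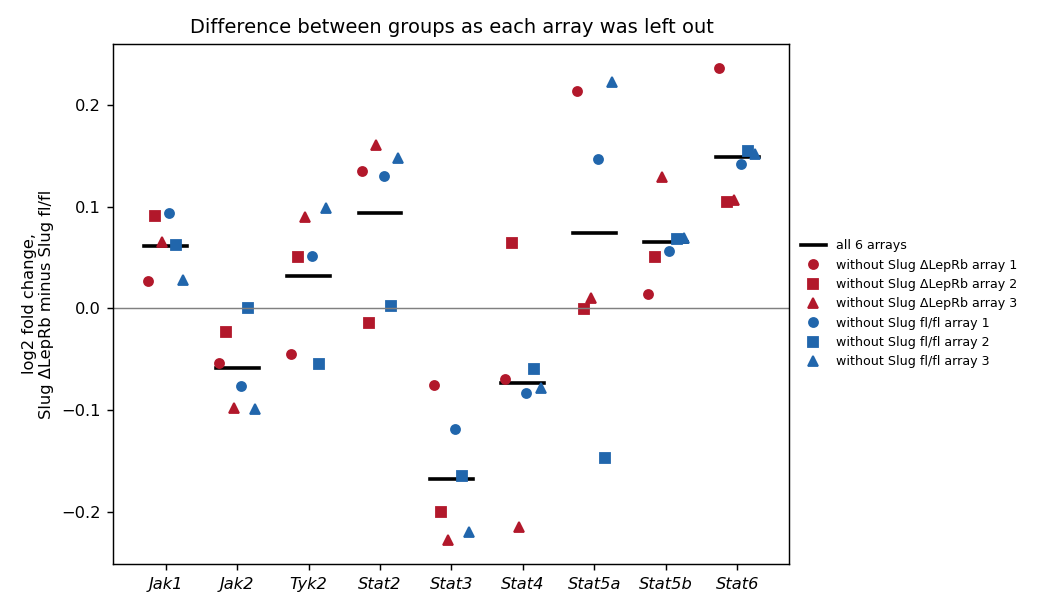
Log2 fold change, Slug ΔLepRb minus Slug fl/fl (y axis), of each JAK and STAT gene with all 6 arrays (black bar) and with each array left out in turn (red, a Slug ΔLepRb array; blue, a Slug fl/fl array). The sign turned in Tyk2, Stat2, Stat4, and Stat5a, and the values of Stat3 stayed below 0 and those of Stat6 above 0.

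Leaving out 1 array turned the sign in 4 genes. Without the second *Slug fl/fl* array the log2 fold change of *Stat5a* was -0.15, and without the third it was 0.22. That of *Stat4* was 0.06 without the second *Slug ΔLepRb* array and -0.21 without the third. *Jak1*, *Jak2*, *Stat3*, *Stat5b*, and *Stat6* kept the sign of their means in all 6 runs, none past the threshold.

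*Lepr*, the receptor gene at which the study's methods place the Cre, lies on chromosome 4 as *Jak1* does, with 4 measured genes between them in the RefSeq order. *Lepr* had log2 values of 4.55, 4.16, and 4.42 on the arrays labeled *Slug ΔLepRb*, against 4.04, 3.72, and 3.96 on those labeled *Slug fl/fl*. The groups did not overlap, and the log2 fold change was 0.47 (SE 0.13, 95% interval 0.18 to 0.76, limma unadjusted p = 0.0050, adjusted p = 0.743). It passed the study's threshold and not the adjusted one. The mean of *Lepr* over all arrays, 4.14, was just below the median of all genes (4.18), so it had no value in the run on brighter genes. By the labels only the *Slug ΔLepRb* mice carried Cre, and by the study's methods it lies at this locus, so a difference at *Lepr* from Cre and one from *Slug* cannot be told apart here.

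The genes between *Jak1* and *Lepr* were not past the threshold. The log2 fold change was -0.11 (SE 0.11) for *0610043K17Rik*, -0.23 (SE 0.14) for the adenylate kinase gene *Ak4*, 0.02 (SE 0.09) for *Dnajc6*, which encodes auxilin, and 0.01 (SE 0.10) for *Leprot*, which shares its first exons with *Lepr*. *Jak1*, at the other end of the stretch, had 0.06.

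**Figure D4:**
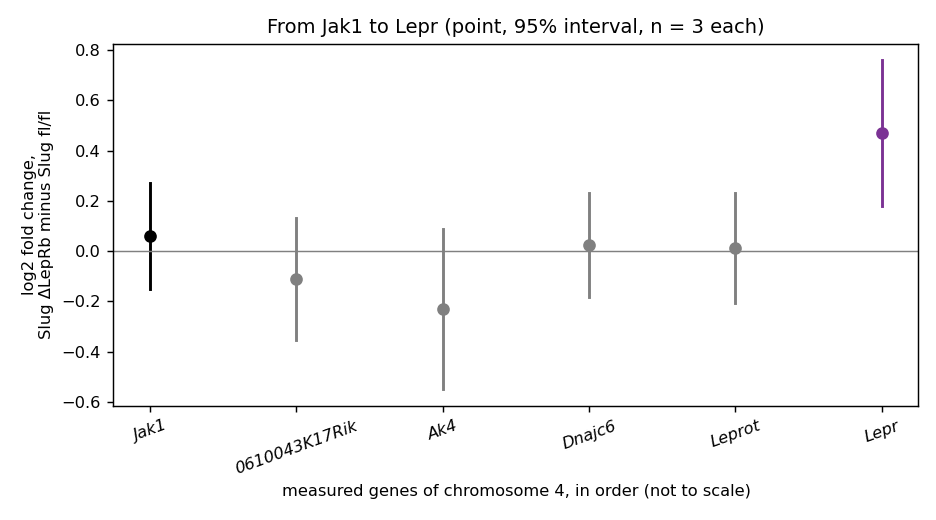
Log2 fold change, Slug ΔLepRb minus Slug fl/fl (y axis), with 95% intervals (n = 3 arrays each) for the measured genes of chromosome 4 in their order (x axis, not to scale). Lepr (purple) is the only one whose interval lies above 0, and Jak1 (black) and the 4 genes between them (gray) span 0.

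*Stat5b*, *Stat5a*, and *Stat3* are direct neighbors on chromosome 11 in the RefSeq order, with *Ghdc* (-0.18) and the orexin gene *Hcrt* (-0.02) before them and *Cavin1* (-0.11) and *Atp6v0a1* (0.02) after them. None of these passed the threshold. Over all 9 genes, 42 other genes lay within 3 places of a member, and 3 of them passed the threshold (7.14%, beside 2.01% of all genes), all higher (beside 1.44% of all genes). These were *Naglu* (0.53, SE 0.23), after *Stat3*, *Apof* (0.41, SE 0.16), beside *Stat2*, and *Icam5* (0.42, SE 0.11), near *Tyk2*. The median log2 fold change of the 42 neighbors was 0.02.

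SNAI2 binds the E-box letters CACCTG, which read CAGGTG on the other strand, a case of the general E-box CANNTG. RefSeq promoters (GRCm38.p6, 250 bases before to 50 after each start) were found for all 9 genes, with 2 starts for *Stat4*, *Stat5a*, and *Stat5b*. On either strand, CACCTG or CAGGTG is present in 20.2% of 32851 promoters of this length. Among the 9 genes only *Stat4*, at both starts, and *Stat5a*, at its first, hold it, and the first *Lepr* promoter holds it at 2 places. These windows are shown because *Slug* is the gene the cross deletes, with the E-box in capitals. A match is a description and not a binding site.
Stat4 first start, plus strand, chr1:51987143-51987172: gccacaatattcCACCTGacgcagagctgt
Stat4 second start, plus strand, chr1:52008105-52008134: agtaactttgttCACCTGcctggtcctcaa
Stat5a first start, plus strand, chr11:100859582-100859611: taggaccagcttCAGGTGtgacccttctag
Lepr first start, plus strand, chr4:101717285-101717314: cagcataccccaCACCTGctgctgtaaagg
Lepr first start, plus strand, chr4:101717379-101717408: ccgccgcgcagtCACCTGagtggccagtgc
The log2 fold changes of the genes that hold the letters were -0.07 for *Stat4*, 0.07 for *Stat5a*, and 0.47 for *Lepr*.

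Many STAT dimers bind TTCNNNGAA, which is its own reverse complement in these letters and is present in 8.30% of the 32851 promoters. Other sites that STATs bind were not searched. None of the promoters of the 9 genes holds TTCNNNGAA. The *Socs3* promoter, on the minus strand, holds it once, and is shown because *Socs3* is the feedback inhibitor described below, with the site in capitals.
Socs3, minus strand, chr11:117969502-117969530: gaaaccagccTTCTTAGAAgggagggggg

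*Stat5a* and *Stat5b*, which lie side by side on opposite strands, share a stretch of 65 bases at their second starts, identical at 58 positions (89.2%). It is shown because it is where the 2 promoters are alike, with the 7 differing bases in capitals.
Stat5a second start, plus strand, chr11:100860418-100860482: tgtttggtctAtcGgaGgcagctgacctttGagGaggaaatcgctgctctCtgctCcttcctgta
Stat5b second start, minus strand, chr11:100822563-100822627: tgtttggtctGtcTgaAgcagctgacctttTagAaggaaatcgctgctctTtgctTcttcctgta
*Stat5a* and *Stat5b* had log2 fold changes of 0.07 and 0.06, each within its own spread.

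The genes that work with JAKs and STATs were counted in 8 lists, written with earlier results of these data known. Of 153 genes listed, 138 were measured, 2 were higher (*Lepr* and *Socs3*), and 1 was lower (*Irf9*) past the study's threshold, which is 2.17% of them beside 2.01% of all genes. None passed the adjusted p by limma. The median log2 fold change was 0.0049 over the 138 genes and 0.0021 over all genes.

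**Figure D5:**
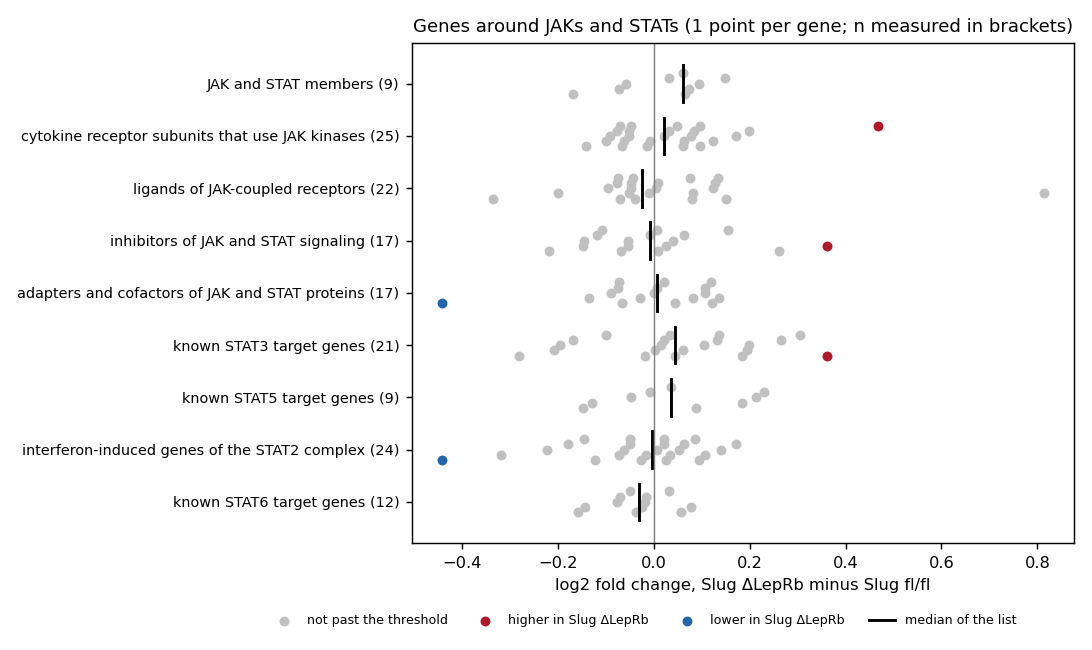
Log2 fold change, Slug ΔLepRb minus Slug fl/fl (x axis), of the 9 JAK and STAT genes and of the measured genes of 8 lists around them (1 point per gene, the number measured in brackets, the list median as a black bar). Only Lepr and Socs3 (red, higher) and Irf9 (blue, lower) passed the study's threshold, and Socs3 and Irf9 each stand in 2 lists.

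Of 25 receptor subunits that use JAKs, 1 passed, *Lepr*, and the list median was 0.02. *Cntfr*, the binding subunit for ciliary neurotrophic factor, had -0.14 (SE 0.10), and *Osmr*, the oncostatin M receptor, had 0.20 (SE 0.14). *Osmr* passed without the third *Slug ΔLepRb* array (0.33). Of 22 ligands, 0 passed, and only 2 had a mean above the median of all genes, so low signal limits what this list can show. *Csf2*, which encodes a myeloid growth factor, had log2 values of 2.52, 2.63, and 2.55 on the arrays labeled *Slug ΔLepRb*, against 2.92, 2.97, and 2.82 on those labeled *Slug fl/fl*. The groups did not overlap, but its log2 fold change of -0.34 (SE 0.09, limma unadjusted p = 0.0055, adjusted p = 0.743) fell short of the 25% limit, and the mean of its rows in the table gave -0.19.

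Of 17 inhibitors, 1 passed. *Socs3*, which binds LepRb and JAK2 and ends leptin signaling, had log2 values of 2.91, 3.30, and 3.15 on the arrays labeled *Slug ΔLepRb*, against 2.58, 2.95, and 2.73 on those labeled *Slug fl/fl*. Its mean was 28.5% higher, with 1 value of each group overlapping (log2 fold change 0.36, SE 0.13, limma unadjusted p = 0.022, adjusted p = 0.839). The call was lost with the unmoderated test and in 4 of the 6 runs that left out an array. In those 4 runs the log2 fold change ran between 0.27 and 0.35. Both group means of *Socs3* were below the median of all genes, and it had no value in the run on brighter genes. *Sh2b3*, an adapter that restrains JAK2, had log2 values of 4.62, 5.06, and 4.84 on the arrays labeled *Slug ΔLepRb*, all above the 4.59, 4.61, and 4.54 on those labeled *Slug fl/fl* (log2 fold change 0.26, SE 0.12, limma adjusted p = 0.839), and did not pass. It passed without the first *Slug ΔLepRb* array (0.37), and had 0.15 without the second. *Socs5* had -0.22 (SE 0.13).

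Of 17 adapters and cofactors, 1 passed, *Irf9*, which encodes the DNA-binding partner of STAT2 in ISGF3. Its log2 values were 4.42, 4.92, and 4.52 on the arrays labeled *Slug ΔLepRb*, against 4.96, 4.86, and 5.36 on those labeled *Slug fl/fl*. The mean fell by 26.4% (log2 fold change -0.44, SE 0.17, limma unadjusted p = 0.024, adjusted p = 0.839), and the second *Slug ΔLepRb* array overlapped with the *Slug fl/fl* arrays. The call was lost with the unmoderated test, and without the first (-0.34) or the third (-0.39) *Slug ΔLepRb* array or the third *Slug fl/fl* array (-0.29). The coactivator gene *Crebbp* had -0.14 (SE 0.10).

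Genes downstream of the STATs were counted by factor. Of 21 known STAT3 targets, 1 passed, *Socs3*, and the list median was 0.04. *Fos*, an immediate early gene, had log2 values of 3.63, 3.70, and 3.71 on the arrays labeled *Slug ΔLepRb*, all below the 3.91, 3.82, and 4.15 on those labeled *Slug fl/fl* (log2 fold change -0.28, SE 0.11, limma unadjusted p = 0.028, adjusted p = 0.839), a change short of the fold limit. *Vegfa*, which encodes a vascular growth factor, had -0.19 (SE 0.10). Of 9 STAT5 targets, 0 passed, and the 2 with the smallest p were *Igfals* (0.21, SE 0.14), which encodes a carrier of insulin-like growth factors, and the kinase gene *Pim1* (0.18, SE 0.14). Without the third *Slug fl/fl* array *Igfals* passed (0.35) and *Pim1* had 0.056, and the mean of the *Pim1* rows in the table gave 0.060.

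Of 24 interferon-induced genes of the STAT2 complex, 1 passed, *Irf9* itself, and the list median was -0.0044. *Mx2*, an antiviral gene, had -0.32 (SE 0.15) and *Isg15*, which encodes a ubiquitin-like protein, 0.14 (SE 0.10). Of 12 STAT6 targets, 0 passed. The chemokine gene *Ccl22* had -0.16 (SE 0.10) and the arginase gene *Arg1* -0.14 (SE 0.16). All 12 had means below the median of all genes, so low signal limits what this list can show.

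The genes that varied most like *Jak2* and *Stat3* over the 6 arrays were taken from 10752 genes with means above the median of all genes. For *Jak2* they were *Fbxo38* (Pearson r = 0.985), *Adprm* (0.985), and *Fam78b* (0.980), and for *Stat3* they were *Prim2* (0.990), *D930016D06Rik* (0.984), and *Pde3b* (0.984). Over only 6 arrays, which these genes share, 85 genes had an r above 0.9 with each of *Jak2* and *Stat3*, so these values describe the arrays. None of the 6 genes named passed the threshold.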

How the data were processed

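The authors deposited 1 table of processed values, taken as log2 because they ran between 0.896 and 12.43. MAS5 appears in the submitters' processing notes with no stated role, and how background and normalization were handled is not given in the sources used here. A single symbol was given by the platform annotation for 21925 of 24663 rows, and the row with the highest mean was kept for each of 21507 genes. Each JAK and STAT gene had 1 row.

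A 2-group fit without covariates was made in limma 3.58.1 (R 4.3.3; lmFit, eBayes), with Benjamini-Hochberg adjustment over 21507 genes, and was tested on simulated data. The members and lists were chosen with earlier results of these data known. All 9 members, *Snai2*, and *Lepr* were named, and from each list the genes past the threshold and up to 2 others with the smallest p, neighboring genes, and the 3 genes most like *Jak2* and *Stat3*. Alternatives were the unmoderated 2-tailed test that the methods name (the methods' t-test), a robust prior with an intensity trend, quantile or median scaling of the arrays, omission of dim genes, averaged rows, all rows, weighted arrays, replicate numbers as a block, and omission of each array. Lists were counted with no set test. Sequences came from RefSeq (GRCm38.p6).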

Additional observations from a re-analysis of the deposited data

How the results depend on the processing

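Of 134 values of the 9 JAK and STAT genes under 15 alternatives, 128 kept their direction and 0 passed the study's threshold. The 6 that turned their sign all came from leaving out an array. With each array left out, the log2 fold change ran between -0.0548 and 0.0987 for *Tyk2*, -0.0148 and 0.160 for *Stat2*, -0.214 and 0.0637 for *Stat4*, and -0.147 and 0.223 for *Stat5a*. *Stat4* is itself dim and had no value in the run on brighter genes. Over all genes, 309 higher and 124 lower became 135 and 56 with dim genes left out and 156 and 62 with the methods' t-test. Leaving out each array in turn gave between 368 and 463 higher and between 153 and 189 lower. The count past the adjusted p (3 by limma) was 5 with dim genes left out, 6 with the trended robust prior, 0 with the methods' t-test, and 1 to 3 with each array left out. The count over the 8 lists (3) was 1 with dim genes left out, 1 with the methods' t-test, and 2 to 5 with each array left out. Replicate numbers did not pair the samples, with correlations of same-numbered deviations of -0.0029, -0.0096, and -0.058. The replicate block left 0 JAK or STAT genes past the threshold and gave 1 gene past the adjusted p. With 3 arrays a group and no scanner files, precision is set by the number of arrays, and signal over background is unknown.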
